A study of Mus musculus with 12 samples.

Results

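The oligoadenylate synthetase (OAS) genes measured here were Oas1a (ENSMUSG00000052776.9), Oas1g (ENSMUSG00000066861.7), Oas2 (ENSMUSG00000032690.9), Oas3 (ENSMUSG00000032661.8), Oasl1 (ENSMUSG00000041827.8) and Oasl2 (ENSMUSG00000029561.10). They were taken by name and are 6 of the 37287 gene IDs in the count tables. All 6 passed the filter on low counts, a CPM (a gene's count scaled to its library's total) of at least 1 in at least 2 libraries.

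OAS enzymes bind double-stranded RNA and join ATP into short 2'-5'-linked oligoadenylates (2-5A). These short oligomers act as a second messenger of the antiviral response. The genes are classical targets of type I interferon, whose receptor activates the transcription factor complex ISGF3, which binds interferon-stimulated response elements (ISREs). Oas1a, Oas1g, Oas2, Oas3 and Oasl2 encode synthetases, while Oasl1 lacks this activity and is known as a translational brake on the interferon regulator Irf7.

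The cells were embryonic mouse fibroblasts with the genotype MyoD-/-; Myf5-/-, which every library shared, untransduced cells included, and their RNA was selected with oligo-dT. Transduced cells received lentivirus in medium with polybrene at 8 µg/ml, were moved to differentiation medium after 24 hours and were harvested 20 hours later. Lenti-GFP was given at a multiplicity of infection (MOI, virus per cell) of 15, 30, 60 and 120 (1 library each) and at a 1x dose (1 library). Lenti-MyoD and lenti-Myf5 were each given at 1x and 2x (1 library each), and 1 library came from cells without virus. A second table held a 1x Chimera library and a 1x MyoD library from another virus batch, made to balance the Chimera. The labels say neither how 1x relates to the MOI values nor what the Chimera protein is made of. Within a table no virus and dose is repeated, and no label says which libraries came from separate cultures, so p-values measure only the spread of these libraries, which may be technical.

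Total counts of the 4 MOI libraries lay between 17.9 and 22.4 M (mega). The other 6 libraries beside them held 68.3 to 81.5 M, the Chimera library 25.1 M and its MyoD library 23.7 M. The depth gap coincides with the step from MOI-dosed virus to the other groups, and these cannot be told apart. All 10 fibroblast markers were detected in every library, with summed levels of 12824 CPM (2x MyoD) to 27848 CPM (MOI 30). The macrophage and other blood cell markers summed to 17.7 to 29.9 CPM over the 12 libraries, 20.5 to 27.1 in the MOI series and 25.5 without virus. Adgre1 and Cd3e were at 0 in every library and Ptprc did not exceed 0.0894 CPM. The labels' factors were in place: Myod1 stood at 309 and 617 CPM with 1x and 2x MyoD and at 5.21 to 5.99 CPM in the rest of the first table. Myf5 stood at 150 and 249 CPM with 1x and 2x Myf5 and at 11.9 to 24.4 CPM in the rest. The Chimera library held 165 CPM of Myf5 and 22.1 CPM of Myod1, where its balanced MyoD library held 14.7 and 324 CPM. Which parts of either gene these reads cover was not tested. In bulk RNA, a change in the share of responding cells and a change in RNA per cell cannot be told apart.

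All 6 genes lie on mouse chromosome 5, in the RefSeq order Oasl2, Oasl1, Oas2, Oas3, then the Oas1 cluster in which Oas1g directly precedes Oas1a. RefSeq promoters (GRCm38.p6, 250 bases before to 50 after the start) were found for 5 of the 6, all but Oas2. An ISRE core, written as 2 GAAA half-sites with any 2 bases between them and read on both strands, occurred in 3 of these 5 and in 3.44% of the 32851 promoters in the table. The windows below, 100 bases before to 20 after the start, show the genes with the match and, for contrast, the most abundant of the family, which has none. Capitals mark the matches. Oas1a lies at chr5:120907506-120907625, Oas1g at chr5:120887594-120887713 and Oas3 at chr5:120777640-120777759, all on the minus strand, and Oasl2 at chr5:114896834-114896953 on the plus strand.
Oas1a: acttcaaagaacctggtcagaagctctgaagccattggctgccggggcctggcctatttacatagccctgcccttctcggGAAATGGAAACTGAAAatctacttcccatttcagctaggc
Oas1g: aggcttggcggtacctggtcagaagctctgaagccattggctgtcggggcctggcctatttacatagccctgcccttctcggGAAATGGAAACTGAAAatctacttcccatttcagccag
Oas3: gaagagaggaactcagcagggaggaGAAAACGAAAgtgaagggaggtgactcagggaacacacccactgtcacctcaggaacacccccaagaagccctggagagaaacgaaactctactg
Oasl2: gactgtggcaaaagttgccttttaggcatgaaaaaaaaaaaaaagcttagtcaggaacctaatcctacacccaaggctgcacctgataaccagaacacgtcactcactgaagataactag
Oas1a and Oas1g share the same pair of overlapping matches, at -20 to -11 and -14 to -5 from the start in Oas1a and at -18 to -9 and -12 to -3 in Oas1g. The match in Oas3 lies further out, at -75 to -66. The GAS core TTCNNNGAA was found in 1 of the 5 promoters, that of Oas1a at -98 to -90, and in 8.30% of all promoters. Neither core was found in Oasl1 or Oasl2, which says only that these letters are not in those promoters.

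Without virus, OAS RNA was low. In untransduced cells Oas1a stood at 0.289 CPM, Oas1g at 0.151, Oas2 at 0.289, Oas3 at 0.0871, Oasl1 at 0.165 and Oasl2 at 1.24, which rest on 6.33 (Oas3) to 90 counts (Oasl2). The 6 genes summed to 2.22 CPM there, 4.98 CPM with 1x GFP and 723 CPM at an MOI of 120.

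**Figure D1:**
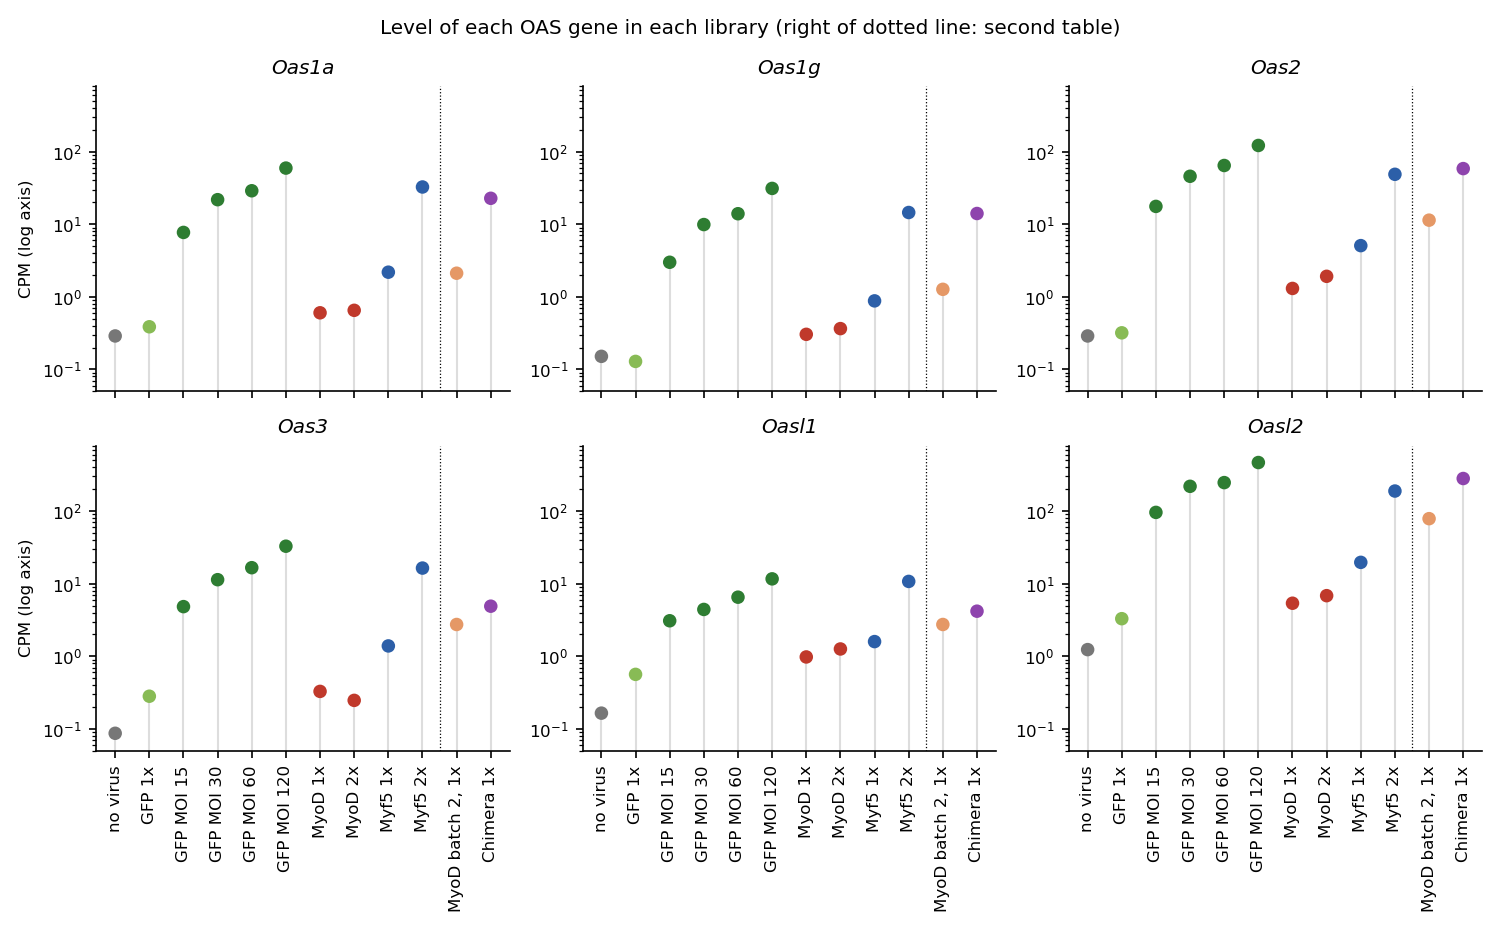
CPM (log axis) of Oas1a, Oas1g, Oas2, Oas3, Oasl1 and Oasl2 in each of the 12 libraries, 1 point per library. The MOI libraries and 2x Myf5 stand high and the untransduced, 1x GFP and MyoD libraries of the first table low; Oasl2, for example, ran from 1.24 CPM without virus to 467 CPM at an MOI of 120.

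The OAS genes rose with GFP virus dose. Oas1a, a small form of the enzyme, stood at 7.70, 21.8, 28.9 and 59.2 CPM at an MOI of 15, 30, 60 and 120. Its tandem neighbour Oas1g stood at 2.99, 9.88, 13.9 and 31.1 CPM along the same series. Each library was above the one before it for both genes, and the lowest was above the untransduced, 1x GFP, 1x and 2x MyoD and 1x Myf5 libraries of the first table. Oas2, the medium form with a duplicated synthetase unit, stood at 17.6, 45.7, 64.3 and 121 CPM. Oas3, the large form that responds best to long double-stranded RNA, stood at 4.84, 11.4, 16.6 and 32.9 CPM. Both also rose at each step, and their lowest MOI library was above those same libraries. Among the OAS-like genes, Oasl1 stood at 3.09, 4.42, 6.53 and 11.7 CPM. Oasl2, which pairs synthetase and ubiquitin-like domains, stood at 96.0, 220, 247 and 467 CPM. These also rose at each step, with Oasl1 spanning the narrowest range of the 6.

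In fold terms, the level at an MOI of 120 was 7.69 times that at 15 for Oas1a, 10.4 for Oas1g, 6.91 for Oas2, 6.79 for Oas3, 3.78 for Oasl1 and 4.86 for Oasl2. All 6 were higher at every step from 15 to 120, against 8.68% of 13383 genes. The steps were uneven: 1.43-fold to 3.31-fold from 15 to 30, 1.13-fold to 1.48-fold from 30 to 60, and 1.79-fold to 2.23-fold from 60 to 120. edgeR's quasi-likelihood test of the log2 slope on MOI, with Benjamini-Hochberg adjustment over all genes, called 6 of 6 higher, where 4.06% of all genes were called higher. The median slope was 0.86 log2 units per doubling of MOI, beside -0.00023 over all genes tested. The slope of Oas1g was 1.01 ± 0.06 (SE; adjusted p = 2.1e-08), that of Oas2 0.85 ± 0.04 (adjusted p = 3.0e-09) and that of Oasl1 0.66 ± 0.07 (adjusted p = 3.3e-06). Those of Oas1a (0.88 ± 0.05), Oas3 (0.86 ± 0.05) and Oasl2 (0.69 ± 0.05) lay between. DESeq2 also called 6 higher over the 4 libraries, and all 6 edgeR calls held in each fit without 1 of the 4 libraries. In the fit over 10 libraries, whose spread is wider, edgeR called 0 of the 6 (6 at an unadjusted p under 0.05, slopes 0.65 to 1.02, adjusted p 0.11 to 0.24) and 0 of all genes (827 higher and 831 lower at an unadjusted p under 0.05).

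**Figure D2:**
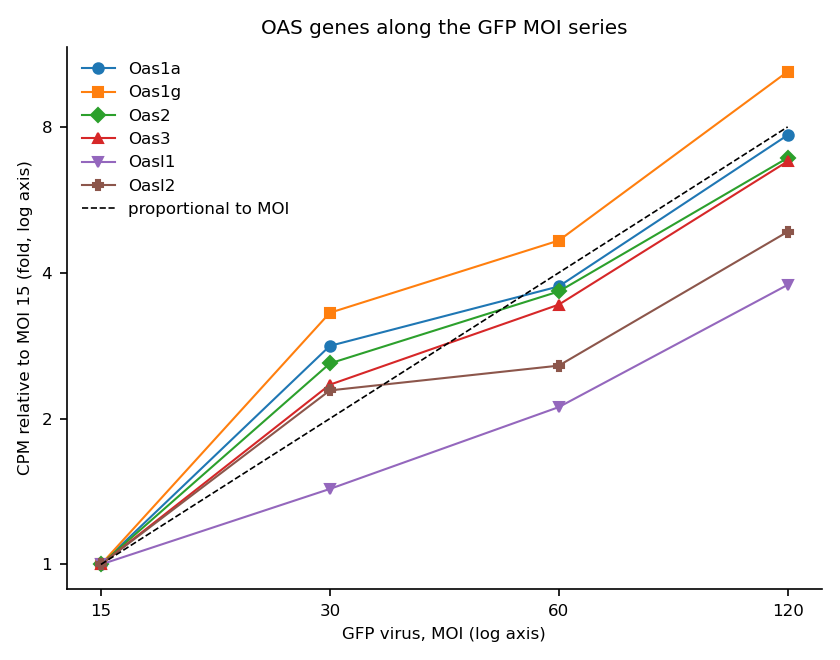
CPM relative to the library at an MOI of 15 (fold, log axis) against MOI (log axis) for the 6 OAS genes, 1 point per library; the dashed line is proportional to MOI. The OAS genes climbed at each step, to 3.78-fold (Oasl1) to 10.4-fold (Oas1g) at an MOI of 120.

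Counts of Oas1a and Oas1g are uncertain between the pair, since 56.9% of the 50-base stretches of the Oas1a transcript also occur in Oas1g and 54.1% of those of Oas1g in Oas1a. The other 4 genes share no 50-base stretch with another OAS gene. The sum of the pair does not depend on how reads were split between them: it was 10.7 CPM at an MOI of 15 and 90.3 at 120, an 8.45-fold difference. The ratio of Oas1a to Oas1g was 2.58, 2.20, 2.07 and 1.91 along the series. The ratio of Oas3 to Oas2 stayed within 0.249 to 0.275. Per kilobase of transcript, Oasl2 made up 71.1% of the summed level of the 6 at an MOI of 15 and 62.4% at 120, and Oas3 2.34% to 2.91% over the series.

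The 2-5A pathway list holds Abce1, an ATP-binding protein of ribosome recycling, and the 2-5A-degrading phosphodiesterases Pde12 and Akap7. Along the series edgeR called 0 of the 3, and 1, Pde12, had an unadjusted p under 0.05 (slope 0.08 ± 0.04, adjusted p = 0.24). Against no virus, 2 of the 3 were lower, Abce1 (-0.56 ± 0.05) and Pde12 (-0.62 ± 0.09), where 26.0% of all genes were called lower. Against 1x GFP, Pde12 was lower (-0.34 ± 0.10; 20.7% of all genes were called lower), while Abce1 differed by -0.12 ± 0.05 (edgeR adjusted p = 0.092).

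The other genes of the response were counted by list, beside the 4.06% of all genes called higher. Of the 6 remaining Oas paralogs 2 passed the filter: Oas1b, annotated by RefSeq as a transcribed pseudogene, rose (slope 0.37 ± 0.04, edgeR adjusted p = 1.1e-05) and Oas1c had a slope of 0.20 ± 0.06 (adjusted p = 0.081). Among 8 double-stranded RNA sensors, 7 rose, from Adar, the RNA-editing deaminase (0.18 ± 0.02), to Zbp1, a sensor of left-handed nucleic acid (0.81 ± 0.06); the adaptor Mavs had a slope of -0.02 ± 0.03. Of 6 listed genes for the interferon receptor and ISGF3, the ISGF3 subunits Stat2 (0.22 ± 0.02) and Irf9 (0.11 ± 0.02) rose, and the receptor chains Ifnar1 and Ifnar2 and the kinases Jak1 and Tyk2 were not called. Irf7, the regulator that Oasl1 restrains, and Irf2 rose among 5 tested interferon regulatory factors (0.48 ± 0.03 and 0.12 ± 0.03). Among 4 feedback genes, the ubiquitin-like modifier Isg15 (0.66 ± 0.04), its protease Usp18 (0.43 ± 0.02) and the signalling inhibitor Socs1 (0.19 ± 0.05) rose.

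**Figure D3:**
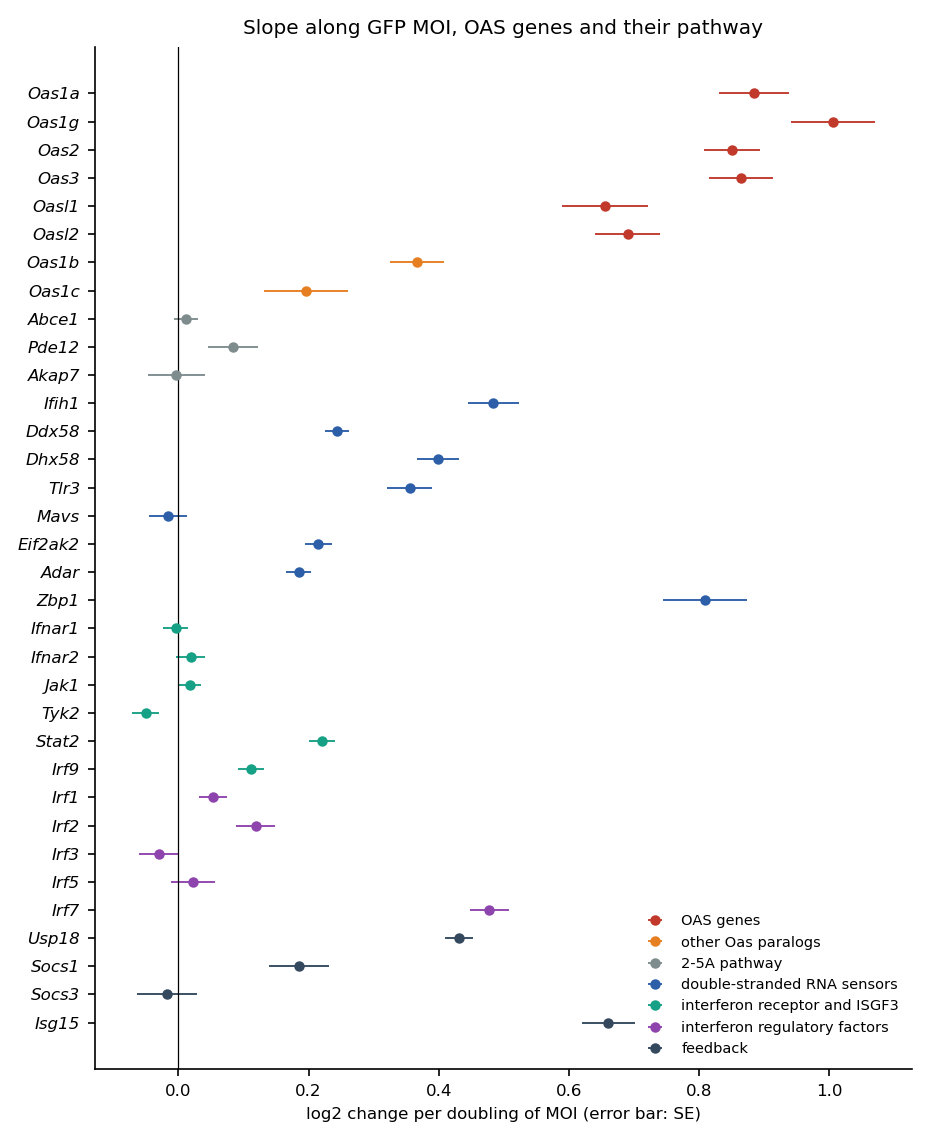
Log2 slope per doubling of MOI with its SE (edgeR, 4 MOI libraries) for the OAS genes and the genes of the pathway lists, coloured by list. The 6 OAS genes lie between 0.66 and 1.01, while Isg15 and Zbp1 fall within that range and the other pathway genes below it.

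Interferon transcripts were scarce. None of the 8 ligand genes with an ID passed the filter. Ifnb1, the fibroblast interferon, had 2, 0, 3 and 10 counts at an MOI of 15, 30, 60 and 120, 21 with 2x Myf5, 2 with 1x Myf5, 4 and 2 with 1x and 2x MyoD, 4 without virus and 0 with 1x GFP. Because depth differed, the order in CPM is another one. Ifnb1 stood at 0.499 CPM at an MOI of 120, 0.307 with 2x Myf5, 0.134 at an MOI of 60, 0.101 at 15 and 0.0550 without virus. In the second table, Ifnb1 had 4 counts with the Chimera (0.159 CPM) and 0 with MyoD. Ifna4 had 6 counts with the Chimera (0.239 CPM), 1 with that MyoD library and 0 throughout the first table. The type III genes Ifnl2 and Ifnl3 and the type II gene Ifng were at 0 in all 12 libraries, where a count of 0 allows up to 0.0368 CPM in the deepest library and 0.168 CPM in the shallowest (3 counts, counting error only).

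Against every other group but Myf5, the MOI series was far higher for all 6 genes. Contrasts were taken at the middle of the log2 MOI range and, for MyoD and Myf5, midway between 1x and 2x. In the first table, Oas1a, Oas1g and Oas3 reached 1 CPM only in MOI and Myf5 libraries. These genes passed the filter only through groups where they are high, so the shares of all genes are a description beside their calls. Over no virus, edgeR called 6 of 6 higher (25.1% of 13825 genes were called higher), with log2 differences of 6.28 (Oas1a), 6.09 (Oas1g), 7.38 (Oas2), 7.23 (Oas3), 5.03 (Oasl1) and 7.44 (Oasl2) and SEs of 0.75 to 0.91. Over 1x GFP, which carries the same cargo, 6 of 6 were higher (19.3% of all genes), by 3.27 ± 0.59 for Oasl1 to 7.24 ± 0.75 for Oas2. Over MyoD, 6 of 6 were higher (33.9% of all genes), by 2.32 ± 0.42 for Oasl1 to 5.88 ± 0.58 for Oas3. Each of the 4 MOI libraries exceeded each of the untransduced, 1x GFP, MyoD and 1x Myf5 libraries for all 6 genes, a pattern held by 21.8% of genes. The pattern leaves out 2x Myf5, which exceeded the library at an MOI of 15 for all 6 genes, so that share is a description and not a test. With 1x GFP pooled into the series as 1 group, 0 of 6 were called over no virus (4 at an unadjusted p under 0.05) and 2 over MyoD. With library groups and no dose terms, 3 were called over 1x GFP.

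Markers of cell type moved in the same contrasts. Against no virus, 4 of 10 fibroblast markers were higher in the series and 4 lower, where 25.1% and 26.0% of all genes were. The matrix proteoglycans Dcn and Lum differed by 1.29 ± 0.07 and 1.31 ± 0.20, while Thy1 and Vim went the other way in CPM. Thy1 stood at 468 CPM without virus and 311 to 316 in the series, and Vim at 5303 and 3510 to 4481. The macrophage lysozyme Lyz2 (-1.99 ± 0.26; 1 of 4 tested blood cell markers) and the endothelial Vwf (-1.05 ± 0.21; the 1 endothelial marker tested) were lower. Against 1x GFP, 4 fibroblast markers were higher and 4 lower, where 19.3% and 20.7% of all genes were. In that contrast 3 of 4 blood cell markers, Vwf and 2 of 5 muscle markers were lower. Against MyoD, 9 of 10 fibroblast markers were higher and 1 lower, and 5 of 5 muscle markers, 2 of 4 blood cell markers and Vwf were lower. Of all genes, 33.9% were called higher and 32.6% lower there. Fibroblast markers summed to 26703 to 27848 CPM in the series, 23835 without virus and 24738 with 1x GFP, and endothelial markers to 2.19 to 3.04, 3.70 and 5.63 CPM. With 1x and 2x MyoD the endothelial sum was 7.53 and 10.7 CPM. The part of these markers in the OAS differences was not tested.

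No difference between 1x GFP and untransduced cells was called. The 1x GFP library stood at 0.386 CPM for Oas1a, 0.129 for Oas1g, 0.319 for Oas2, 0.282 for Oas3, 0.564 for Oasl1 and 3.30 for Oasl2. edgeR called 0 of 6 against no virus (17.4% of all genes in either direction), with 0 at an unadjusted p under 0.05 and 0 by DESeq2. The log2 differences ran from -0.30 ± 1.72 for Oas1g to 1.76 ± 1.02 for Oasl1, so differences of this size were not detectable with this spread. That spread includes how far the MyoD and Myf5 dose effects depart from the slope they share in this fit. With separate dose slopes for MyoD and Myf5, a fit added after the values were seen whose spread comes only from the MOI libraries, 3 were higher: Oas3 (1.74 ± 0.63), Oasl1 (1.76 ± 0.43) and Oasl2 (1.41 ± 0.42). The count was also 3 in each fit without 1 of the 4 MyoD and Myf5 libraries.

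In the first table, MyoD virus gave low OAS levels at both doses, while the second-batch 1x MyoD library of the second table stood higher. With 1x and 2x MyoD, Oas1a stood at 0.602 and 0.651 CPM, Oas1g at 0.304 and 0.365, Oas2 at 1.30 and 1.91, Oas3 at 0.329 and 0.247, Oasl1 at 0.980 and 1.26 and Oasl2 at 5.39 and 6.85. Both MyoD doses of the first table stood below both Myf5 doses for all 6 genes. At 1x alone, the CPM ratio of MyoD to GFP ran from 1.17 for Oas3 to 4.09 for Oas2, with no test. The fitted contrast takes MyoD midway between 1x and 2x but GFP at 1x, so virus dose and factor are mixed in it. Against 1x GFP, edgeR called 0 of 6 (45.7% of all genes in either direction), with 0 at an unadjusted p under 0.05 and 1 by DESeq2, and log2 differences of -0.39 ± 1.11 for Oas3 to 2.08 ± 1.02 for Oas2. The separate-slope fit called 4 higher: Oas1g (1.42 ± 0.57), Oas2 (2.31 ± 0.38), Oasl1 (0.98 ± 0.25) and Oasl2 (0.89 ± 0.26). With 1 dose slope, leaving out either Myf5 library gave 4 higher, leaving out 2x MyoD 6 higher and leaving out 1x MyoD 1 lower.

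Myf5 virus at 2x reached the range of the MOI series. From 1x to 2x Myf5, Oas1a went from 2.18 to 32.5 CPM, Oas1g from 0.878 to 14.5, Oas2 from 5.07 to 48.6, Oas3 from 1.39 to 16.4, Oasl1 from 1.60 to 10.8 and Oasl2 from 19.7 to 189. The ratio of 2x to 1x was 14.9, 16.5, 9.60, 11.8, 6.74 and 9.60 in that order (15.4 for the sum of Oas1a and Oas1g), from libraries of like depth (68.3 and 68.5 M counts). For the same genes the MyoD ratios were 1.08, 1.20, 1.47, 0.752, 1.29 and 1.27. The separate-slope fit was added after the values were seen, and each dose effect in it rests on 1 library per dose. It fits every MyoD and Myf5 library exactly. Its SEs and p-values therefore reflect only how the 4 MOI libraries deviate from a line, and hold no MyoD or Myf5 spread. In this separate-slope fit, edgeR called 6 of 6 higher with 2x Myf5 (7.43% of all genes), by 2.76 ± 0.18 log2 units for Oasl1 to 4.05 ± 0.25 for Oas1g. For MyoD it called 0 of 6 (34.3% in either direction; 0 at an unadjusted p under 0.05), from -0.34 ± 0.47 for Oas3 to 0.59 ± 0.30 for Oas2. The difference between the dose effects was itself called for 6 of 6 (6.97% of all genes higher), from 2.36 ± 0.32 for Oasl1 (adjusted p = 9.9e-05) to 3.91 ± 0.53 for Oas3 (adjusted p = 1.1e-04).

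With 1 dose effect common to both factors, as first specified, edgeR called 6 of 6 higher at 2x (6.26% of all genes), by 1.79 ± 0.44 for Oasl1 to 3.24 ± 0.61 for Oas1g. That call went to 0 of 6 without the 1x Myf5 library, without the 2x Myf5 library and without the libraries at an MOI of 60 or of 120, to 1 without MOI 15 and to 2 without MOI 30. DESeq2 called 0 of 6 (5 at an unadjusted p under 0.05). Muscle markers summed to 20.6 and 89.0 CPM with 1x and 2x Myf5 and to 688 and 2172 CPM with 1x and 2x MyoD. Fibroblast markers summed to 21325 and 17945 CPM with 1x and 2x Myf5 and to 17680 and 12824 CPM with MyoD. The part of these in the OAS difference was not tested.

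**Figure D4:**
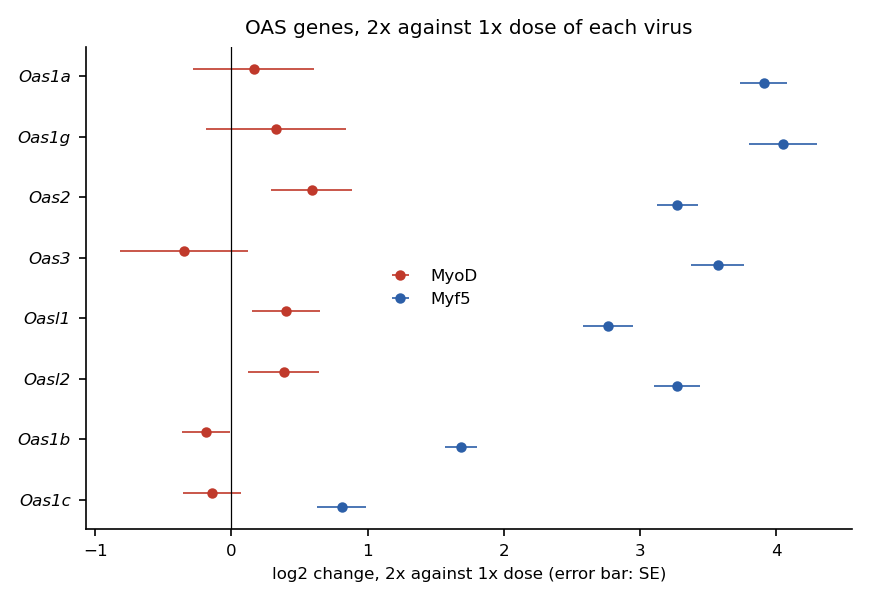
Log2 difference of 2x over 1x with its SE (edgeR, separate dose slopes) for the 6 OAS genes and their paralogs Oas1b and Oas1c, MyoD (red) beside Myf5 (blue). The Myf5 points of the 6 OAS genes lie between 2.76 and 4.05 and the MyoD points between -0.34 and 0.59.

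Averaged over its doses, Myf5 was above 1x GFP for 6 of 6 genes (8.50% of all genes were called higher), least for Oasl1 and by up to 5.71 ± 0.79 for Oas2, with Oas1g at 5.01 ± 0.93. With library groups and no dose terms that count was 0 (6 at an unadjusted p under 0.05). The contrast sets Myf5 midway between 1x and 2x against GFP at 1x, and there was no 2x GFP library. Virus dose and factor are therefore mixed in it. At 1x alone, the CPM ratio of Myf5 to GFP ran from 2.83 for Oasl1 to 15.9 for Oas2, with no test. MyoD was below Myf5 for 6 of 6 (19.9% of all genes were called lower), from -2.05 ± 0.44 for Oasl1 to -4.58 ± 0.61 for Oas3. With library groups and no dose terms 4 were called lower, and Oas1g (-4.51 ± 1.44, adjusted p = 0.059) and Oasl1 (-2.44 ± 0.85, adjusted p = 0.076) were not. Between the MOI series and Myf5, edgeR called 5 of 6 higher in the series (24.3% of all genes), by 1.28 ± 0.40 for Oas1a to 1.70 ± 0.44 for Oasl2, while Oasl1 differed by 0.27 ± 0.36 (adjusted p = 0.56). This last comparison turned on single libraries. Without 1x Myf5, 0 were higher, 1 was lower (Oasl1) and 4 differences had the other sign; 0 were higher without MOI 120, and 2 without MOI 30 or MOI 60.

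The place of 2x Myf5 in the MOI series differed by gene. It fell between MOI 60 and 120 for Oas1a, Oas1g and Oasl1, between 30 and 60 for Oas2 and Oas3, and between 15 and 30 for Oasl2. By 95% counting intervals of the ratio, which cover counting error only, 2x Myf5 was not separated from MOI 60 for Oas1g (ratio 1.04, 0.914 to 1.18) and for Oas3 (ratio 1.01, 0.898 to 1.14). It was likewise not separated from MOI 30 for Oas2 (1.06, 0.986 to 1.15) or from MOI 120 for Oasl1 (1.08, 0.932 to 1.26). Of the 9 pairs of neighbours in each gene's order of 10 libraries, 3 were not separated for Oas1a, 4 for Oas1g, 2 for Oas2, 3 for Oas3, 3 for Oasl1 and 0 for Oasl2. The unseparated pairs outside those named lay among the untransduced, 1x GFP and MyoD libraries or, for Oasl1, between 2x MyoD and 1x Myf5.

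Of the pathway lists, 7 of 8 double-stranded RNA sensors, 2 of 6 receptor and ISGF3 genes, 2 of 5 interferon regulatory factors, 3 of 4 feedback genes and 2 of 2 tested Oas paralogs were higher with 2x Myf5, where 7.43% of all genes were. Isg15 differed by 3.01 ± 0.13, Irf7 by 1.85 ± 0.09 and Stat2 by 0.94 ± 0.06, beside 2.76 ± 0.18 for Oasl1. With 2x MyoD, 5 of the 6 receptor and ISGF3 genes, 2 of the 5 interferon regulatory factors, 1 of the 8 sensors (Ddx58) and 1 of the 4 feedback genes (Socs3) were lower, where 16.7% of all genes were.

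In the second table, OAS levels were higher with the Chimera than with its balanced MyoD library. These are single libraries, so there is no replicate check, and the 95% binomial intervals cover counting error only. Oas1a stood at 22.7 CPM with the Chimera and 2.11 with MyoD, a ratio of 10.8 (8.05 to 14.7), and Oas1g at 14.0 and 1.27 CPM, a ratio of 11.1 (7.62 to 16.7). Oas2 stood at 58.3 and 11.4 CPM (5.13, 4.50 to 5.86) and Oasl2 at 281 and 78.7 CPM (3.57, 3.39 to 3.76). The smallest ratios were those of Oas3, at 4.90 and 2.74 CPM (1.79, 1.31 to 2.45), and Oasl1, at 4.19 and 2.74 CPM (1.52, 1.11 to 2.11). Thus 4 of 6 were at least 2-fold higher, beside 2.54% of the 13412 genes with at least 50 counts over both libraries.

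**Figure D5:**
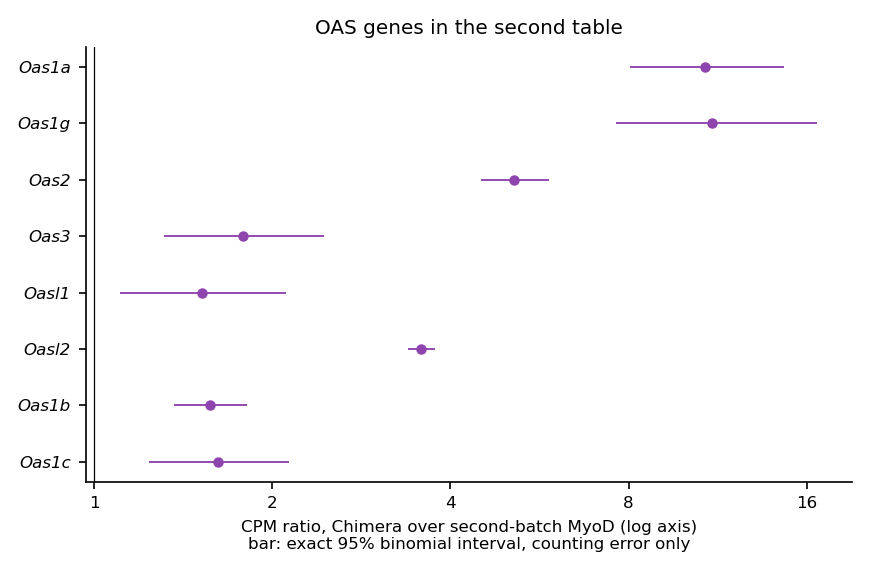
Ratio of CPM in the Chimera library to the second-batch MyoD library (log axis) with 95% binomial intervals for the 6 OAS genes, Oas1b and Oas1c. Oas1a and Oas1g stand near 11, while Oas3 and Oasl1 lie below 2.

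The ratio of Oas3 to Oas2 was 0.0841 with the Chimera and 0.242 with its MyoD library. In the first table it ran from 0.249 to 0.275 in the MOI series. With 1x and 2x MyoD it was 0.252 and 0.129, and with 1x and 2x Myf5 0.275 and 0.338. The ratio was 0.302 without virus and 0.885 with 1x GFP. The 2x MyoD ratio rests on 19 Oas3 and 147 Oas2 counts, the untransduced ratio on 6.33 and 21, and the 1x GFP ratio on 23 and 26. Of the genes in the 2-5A, sensor, receptor, regulatory factor and feedback lists, the highest Chimera to MyoD ratios were those of Zbp1 (4.59), Isg15 (2.87), Usp18 (2.27), Irf7 (2.19) and Dhx58 (2.11). The lowest were those of Irf3 (0.712), Socs3 (0.845), Mavs (0.856), Irf1 (0.857) and Pde12 (0.864). Fibroblast markers summed to 23787 CPM with the Chimera and 18856 with MyoD, muscle markers to 807 and 2358, and blood cell markers to 17.7 and 23.1; their part in the difference was not tested. Across tables, which were made separately, second-batch 1x MyoD stood above first-batch 1x MyoD for all 6 genes. The ratio of CPM ran from 2.80 for Oasl1 to 14.6 for Oasl2, with no test. The 6 genes summed to 98.9 CPM with second-batch 1x MyoD, 8.90 with first-batch 1x MyoD and 30.8 with 1x Myf5. Of the 6, only Oas1a was not higher with second-batch 1x MyoD than with 1x Myf5 (2.11 and 2.18 CPM, on 50 and 149 counts). No interval was computed for this pair, and counts of Oas1a are uncertain against Oas1g.

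The genes whose log2(CPM + 1) over the 10 first-table libraries was most like the standardised mean of the 6, among 10836 ranked, were Zbp1 (Pearson r = 0.995), Cmpk2 (0.994), Gvin1 (0.994), Gm4070 (0.994), Iigp1 (0.992), Ube2l6 (0.992), Ifi206 (0.991) and Gm43302 (0.991). Each OAS gene against the mean of the other 5 gave 0.973 (Oasl1) to 0.997 (Oas1a). These values describe 10 libraries in which the MOI series and 2x Myf5 are high and the 4 MOI libraries share a lower depth. Cmpk2, a mitochondrial nucleotide kinase induced by interferon, stood at 0.110 CPM without virus and 28.3 at an MOI of 120. Gvin1 and Iigp1, interferon-inducible GTPases, stood at 0.506 and 1.38 CPM without virus and 68.1 and 161 at an MOI of 120.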

How the data were processed

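The members, lists and tests were chosen with earlier results of these data known. The submitters' processing notes name CASAVA 1.8.2, TopHat2 2.0.8 and the mm9 build; the gene counter and annotation release are not given in the sources used here. For 10 libraries the authors deposited expected counts, of which 14.6% to 22.2% lay in values that were not whole (tolerance 1e-06), and these were rounded. For the other 2 they deposited whole-number counts. The 37 mitochondrial genes are at 0 throughout the first of these tables and take 4.05% and 4.18% of the second, and no fit spans both. Symbols came from GENCODE vM21 names (32610 of 37287 IDs matched), lengths from its longest coding transcript.

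In R 4.3.3, edgeR 4.0.16 fitted a log2 MOI slope over 4 libraries (13383 genes, 2 residual degrees of freedom). A second fit over 10 libraries had groups, an MOI slope and a dose slope shared by MyoD and Myf5 (13825 genes, 3 degrees of freedom). The spread of this second fit, and so its SEs, includes how far MyoD and Myf5 depart from the shared dose slope. Both fits used TMM and an adjusted p threshold of 0.05, two-sided. A lone library was taken to vary as the rest do. DESeq2 1.42.0, other scalings, filters and designs, and leaving out each library were alternatives. Standard errors were derived from the test statistic. The named genes are the 6 members, the listed pathway genes and the 8 genes most like the members' mean. Some genes of the pathway are not reported here.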

Additional observations from a re-analysis of the deposited data

Results flagged for a closer look

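The effect of 2x over 1x dose differed between the Myf5 and MyoD viruses for each of the 6 OAS genes, by the test of the difference in edgeR's fit with separate dose slopes. That fit was added after the values were seen, and its spread comes only from how the 4 MOI libraries deviate from a line. The Myf5 effect minus the MyoD effect, in log2 units, was 3.74 ± 0.53 (SE) for Oas1a, 3.72 ± 0.63 for Oas1g, 2.68 ± 0.36 for Oas2, 3.91 ± 0.53 for Oas3, 2.36 ± 0.32 for Oasl1 and 2.89 ± 0.32 for Oasl2. Each effect rests on 1 library per dose.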

How the results depend on the processing

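No paired analysis was possible because the labels carry no replicate numbers; the 1x and 2x doses were a model term instead. Over the settings other than leaving out a library, 365 of 420 member values kept their side of the threshold. Another 46 were no longer called and 9 became called. A value counts as reversed when its sign changed and it was called before or after, which held for 0. A change of sign with neither value called was counted as kept, as for Oas3 in MyoD against 1x GFP with separate slopes. Leaving out a library kept 448 of 528, and 7 reversed.

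Of the 6 genes, the number called higher changed as follows. Along the MOI series it was 0 in the 10-library fit. With all 5 GFP libraries as 1 group it was 0 against no virus, 2 against MyoD and 0 against Myf5. With library groups only it was 3 for the series against 1x GFP, 0 against Myf5, and 0 for Myf5 against 1x GFP, and 4 in place of 6 were lower for MyoD against Myf5. DESeq2 called 2 for the series against Myf5, 1 for MyoD against 1x GFP and 0 for the common dose effect. Separate slopes called 3 for 1x GFP against no virus and 4 for MyoD against 1x GFP.

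Leaving out 1 library gave 0 to 6 higher and 0 to 1 lower for the series against Myf5, 0 to 3 higher for 1x GFP against no virus, 0 to 6 higher and 0 to 1 lower for MyoD against 1x GFP, and 0 to 6 higher for the common dose effect. Single values that reversed then spanned, for the series against Myf5, -0.42 to 3.31 for Oas1a, -0.28 to 3.42 for Oas1g, -0.51 to 3.38 for Oas3 and -0.75 to 1.59 for Oasl1. Oas3 spanned -1.94 to 1.97 in MyoD against 1x GFP and -0.34 to 3.57 for the dose effect. The reversals came without 1x Myf5 (series, dose effect), 2x Myf5 (dose effect) and 2x MyoD. Without 1 dose of a factor, the shared dose slope rests on the other factor alone, and the contrasts at mid-dose use that slope. The Oas3 dose effect was -0.33 without 1x Myf5 and -0.34 without 2x Myf5. The cause of the reversals was not tested. Counts of 6.33 to 90 per gene without virus limit contrasts among the low libraries.

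Over all genes, the number called in either direction, with its lowest and highest over all settings, was 1002 (0 to 1552) for the MOI slope, 7066 (1154 to 8917) for the series against no virus, 5527 (3369 to 7915) for the series against 1x GFP, 9195 (5856 to 10325) for the series against MyoD, 6924 (843 to 8822) for the series against Myf5. It was 2402 (683 to 5344) for 1x GFP against no virus, 6317 (4223 to 8408) for MyoD against 1x GFP, 2198 (163 to 4915) for Myf5 against 1x GFP, 5387 (2682 to 7671) for MyoD against Myf5 and 1678 (607 to 4838) for the dose effect.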
